A study of Mus musculus with 12 samples.

Results

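The cytosolic ribosomal protein genes were followed across 3 times of sorbitol treatment and 2 sorted fractions of mouse E14 embryonic stem cells. Genes were taken by symbol (Rpl or Rps followed by a number, a letter a or P0 to P2) among protein-coding genes of GENCODE M21, leaving out Rps27l and the Rps6k kinases. The symbols matched 83 genes, and 75 of them, 47 of the large and 28 of the small subunit, had at least 10 counts in at least 2 libraries and were tested among 19384 genes. The 8 below that minimum were Rpl17, Rpl29, Rpl38, Rpl3l, Rpl7a, Rps12, Rps13 and Rps15, with 0 to 41 counts each over all 12 libraries.

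E14 is an established mouse embryonic stem cell line. All groups carried the same reporter, 2C::3xtbGFP, in which green fluorescent tbGFP marks cells that turn on genes of the 2-cell embryo. Cells were exposed to sorbitol, a sugar alcohol that raises osmolarity, for 0, 6 or 24 h and were sorted after culture into tbGFP-negative and tbGFP-positive cells, with 2 libraries in each of the 6 groups. All groups were plated in serum and LIF, a cytokine that maintains pluripotency, without the kinase inhibitors used for expansion. The labels do not say when sorbitol was added within the culture and give no untreated cells matched to 6 or 24 h, so sorbitol and time cannot be told apart. The sort selects on the 2-cell program itself, and a fraction at 6 or 24 h need not descend from the same fraction at 0 h. Whether both libraries of a group came from separate cultures is not labelled, so p-values measure the spread between these libraries, which may be technical.

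Ribosomal proteins assemble with ribosomal RNA into the small subunit, which reads the mRNA, and the large subunit, which joins amino acids. Their mRNAs are abundant, begin with a run of pyrimidines, and are held back from translation when the kinase mTOR is inactive, while their introns often house small nucleolar RNAs. Several members also act outside the ribosome: Rpl5, Rpl11 and Rpl23 can bind Mdm2, the ubiquitin ligase of p53, when ribosome assembly is disturbed.

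The libraries held 2306870 to 7900178 counts, the least in tbGFP-negative library 1 at 0 h. The summed level of 8 of 8 markers of 2-cell-like cells was 11.5 to 25.7 CPM (counts per library scaled to a common total) in tbGFP-negative libraries at 0 h, 35.6 to 47.8 at 6 h and 554 to 585 at 24 h. It was 35330 to 40180, 23519 to 28420 and 23134 to 24020 in tbGFP-positive libraries. Zfp352 and Tcstv3 were at 0 in the tbGFP-negative groups at 0 and 6 h, and Tdpoz3 and Usp17lc also at 0 h. All 8 pluripotency markers were detected in every group, with summed levels of 6317 to 9335 CPM. Summed levels of 5 markers each were 3.39 to 27.1 CPM for fibroblasts, 2.26 to 15.9 for primitive endoderm, 0.601 to 18.5 for trophectoderm and 1.13 to 10.7 for mesoderm and ectoderm. Pdgfra, Foxa2, Gata4, Sox17, Cdx2, Elf5, Tfap2c, Nes and T were among those at 0 in 1 or more groups. The part of these markers in the results below was not tested. In bulk RNA, fewer cells of a type and less RNA per cell cannot be told apart.

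The deposited values are counts per transcript, and which transcripts of a ribosomal protein gene held counts went with how much sequence they shared. Of the 495 annotated transcripts of the 83 genes, 170 had no base on their own strand that no other transcript covered, and all 170 held 0 counts in all 12 libraries. Transcripts with a longest private run of over 100 bases held 913706 of the 916614 counts. A typical gene of this family has a coding transcript whose exons are shared with shorter annotated versions. Read positions are not given, so a transcript is called counted where most of its private annotated bases lie. The coding transcript compared was the shortest one marked as principal in the annotation, where there was one. For 48 of the 75 members the transcript with the most counts was thus counted mainly in an intron of the coding transcript. For 21 it was counted in its exons and for 6 downstream of it. By annotated class the leading transcript was a retained intron in 35 members, protein-coding in 33 and a processed transcript in 7. By this placing, the values of most members below are measurements of intron-holding RNA or of a private 3′ end, not of the whole mRNA.

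Boundaries of 3 retained introns are shown because transcripts that hold them carried several of the changes below. Each line gives the last 15 exon bases and the first 45 intron bases of the retained intron, 5′ to 3′, from the GENCODE M21 transcript sequences (GRCm38), with the GT that opens the intron in capitals.
Rpl30-203, intron 2 of Rpl30-201, chr15:34442590-34442649, minus strand: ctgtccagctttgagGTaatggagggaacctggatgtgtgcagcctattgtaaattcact
Rpl27a-202, intron 4 of Rpl27a-203, chr7:109520628-109520687, plus strand: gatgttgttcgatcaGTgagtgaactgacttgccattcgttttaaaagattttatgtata
Rps19-207, intron 3 of Rps19-202, chr7:24885538-24885597, plus strand: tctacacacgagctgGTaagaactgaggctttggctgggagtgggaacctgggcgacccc
These introns are 1272, 958 and 2729 bases long.

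A few members held most of the counts. Rplp1, Rps3a1, Rpl4, Rpl36, Rplp0, Rpl39, Rpl7l1, Rpl10l and Rpl15 together had 85.7% of all member counts. The 4 members with a single annotated transcript, Rplp1, Rps3a1, Rpl36 and Rpl10l, had 54.9%. Copies of these genes elsewhere in the genome share much of their sequence: of the 50-base words in the leading transcript, 81.1% in Rpl36, 71% in Rps3a1, 60% in Rplp1 and 41.8% in Rplp0 also occurred in other annotated genes. How reads that fit several places were handled is not given in the sources used here, so the values of these members are uncertain in this respect.

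Ribosomal protein genes took up a smaller unscaled share of the counts in tbGFP-positive than in tbGFP-negative libraries at each time. This order depended on scaling. Once each share was divided by its library's TMM factor, the scaling used for gene levels below, only the 6 h libraries kept it. For the 0 and 24 h libraries the scaled share was instead larger in the tbGFP-positive fraction, without overlap. The values that follow are unscaled. The share of all counts was 1.40% and 1.34% in tbGFP-negative libraries 1 and 2 at the start, 1.51% and 1.48% after 6 h, then 1.29% and 1.28% after 24 h. It was 1.19% and 1.10%, 1.21% and 1.29%, and 1.24% and 1.14% in tbGFP-positive libraries. The fractions did not overlap within any time. With protein-coding transcripts alone they overlapped at 24 h, with 1.144% and 1.132% in tbGFP-negative against 1.161% and 1.053% in tbGFP-positive libraries. Over all transcripts the tbGFP-negative libraries at 6 h were the highest of all 12. Means were 1.37% ± 0.0446 (SD, n = 2) against 1.14% ± 0.0632 at 0 h, 1.495% ± 0.0275 against 1.25% ± 0.0592 at 6 h, and 1.28% ± 0.00947 against 1.19% ± 0.072 at 24 h.

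**Figure D1:**
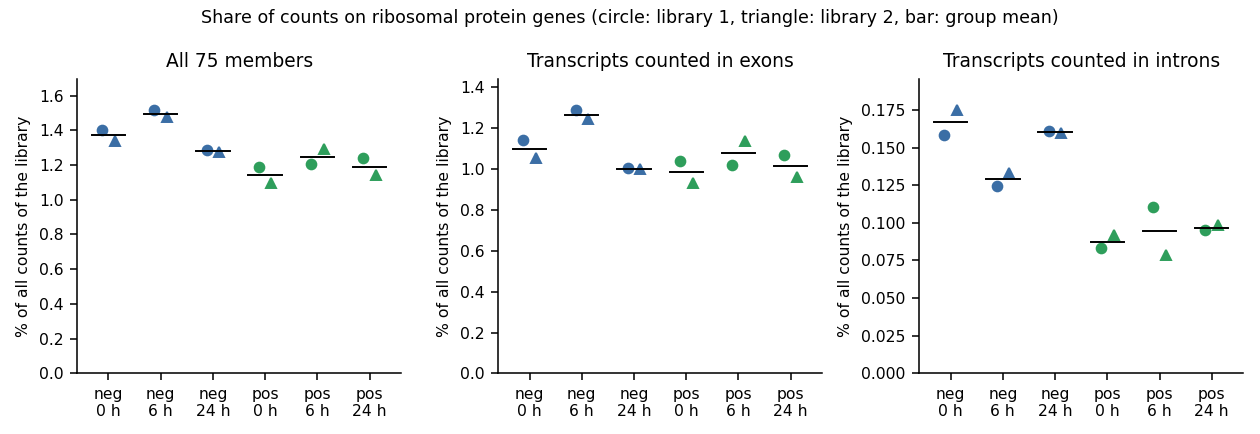
Share of each library's counts (percent, vertical axis) on the 75 ribosomal protein genes, on their transcripts counted mainly in exons, and on those counted mainly in introns, by sorted fraction and time. Points are libraries and bars are group means; the intron share was 0.125% to 0.175% in tbGFP-negative and 0.0784% to 0.111% in tbGFP-positive libraries.

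The lower unscaled share in tbGFP-positive libraries was seen in intron counts at all 3 times and in exon counts at 0 and 6 h. Divided by each library's TMM factor, the intron share was still lower at all 3 times, but the exon share only at 6 h. At 0 and 24 h the scaled exon share was higher in tbGFP-positive libraries. Transcripts counted mainly in introns of the coding transcript held 0.159% and 0.175% of all counts in tbGFP-negative libraries at the start, 0.125% and 0.133% after 6 h, then 0.161% and 0.159% after 24 h. In tbGFP-positive libraries they held 0.0835% and 0.0917%, 0.111% and 0.0784%, and 0.0952% and 0.0984%. All 6 tbGFP-negative libraries thus lay above all 6 tbGFP-positive ones. Transcripts counted in exons held 1.14% and 1.06% against 1.04% and 0.931% at 0 h and 1.29% and 1.25% against 1.02% and 1.14% at 6 h, without overlap of the fractions. At 24 h the unscaled exon shares overlapped, with 1.00% in both tbGFP-negative libraries against 1.07% and 0.960%. Retained-intron transcripts of all other genes also held a lower share in tbGFP-positive libraries at 0 h, 2.24% and 2.26% against 2.80% and 3.35%, and at 24 h, 2.54% and 2.97% against 4.32% and 4.39%. At 6 h they overlapped, with 2.65% and 2.24% against 2.22% and 2.48%. These shares of other genes are by annotated class, while the intron shares of members above are by placing of private bases. By class, members held 0.0938% and 0.0987% in tbGFP-negative against 0.0909% and 0.0593% in tbGFP-positive libraries at 6 h. They were also lower in tbGFP-positive libraries at 0 and 24 h. A lower unscaled share of retained-intron transcripts at 0 and 24 h was therefore not particular to the ribosomal protein genes. Divided by the TMM factors, the share of other genes was lower in tbGFP-positive libraries at 24 h and overlapped at 0 h. The 66 members outside the 9 most counted also held more of the counts in tbGFP-negative libraries, with 0.199% to 0.242% against 0.121% to 0.176%. These shares are descriptions of counts over chosen members and were given no test.

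Gene by gene, changes were tested with edgeR's quasi-likelihood test on counts scaled by TMM factors, with Benjamini-Hochberg adjustment over all 19384 genes and a threshold of 0.05. Log2 fold changes are given ± standard error (SE) and levels are CPM scaled by the same factors. The comparisons of fractions at one time and of times within one fraction share libraries, so their calls are not independent of each other. Between fractions at 0 h, 3 of 75 members were called (7.11% of all tested genes were), 1 higher in tbGFP-positive cells (6.66% of all genes) and 2 lower (0.449%). After 6 h 7 were called (12.1% of all genes), 0 higher (6.92%) and 7 lower (5.22%). After 24 h 2 were called (5.46%), 2 higher (5.35%) and 0 lower (0.113%). Within tbGFP-negative cells 3 were called at 6 h against 0 h (4.44%), 3 higher (3.22%) and 0 lower (1.21%). From 0 to 24 h 1 was called (3.99%), 0 higher (2.7%) and 1 lower (1.29%). From 6 to 24 h 4 were called (7.91%), 0 higher (3.62%) and 4 lower (4.3%). Within tbGFP-positive cells 8 were called at 6 h against 0 h (5.9%), 3 higher (2.14%) and 5 lower (3.76%). From 0 to 24 h 0 were called (0.552%, with 0.304% higher and 0.248% lower). From 6 to 24 h 11 were called (8.8%), 6 higher (5.89%) and 5 lower (2.9%). Several of these counts are near the share of all genes, such as 3 of 75 (4%) where 4.44% of all genes were called, and are no result about the members. For 24 h against 0 h in tbGFP-positive cells, 3 members had an unadjusted p under 0.05 in edgeR and DESeq2 also called 0.

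**Figure D2:**
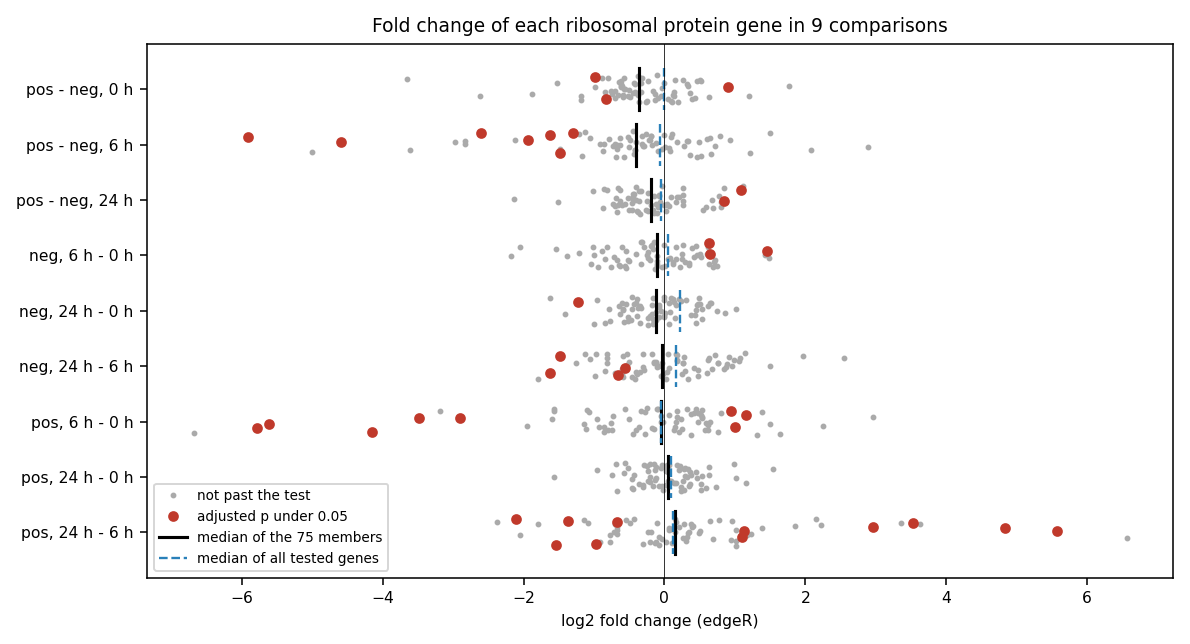
Log2 fold change (horizontal axis) of each of the 75 ribosomal protein genes in the 9 comparisons between groups. Red points passed the adjusted threshold of 0.05, black bars mark the median of the members and dashed blue bars the median of all tested genes; in tbGFP-positive against tbGFP-negative cells the members' median was -0.37 at 0 h, -0.40 at 6 h and -0.19 at 24 h.

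The members' median log2 fold change lay below that of all tested genes in each comparison of fractions. It was -0.37 at 0 h where the median of all genes was 0.00, -0.40 against -0.07 at 6 h and -0.19 against -0.05 at 24 h. At 0 h 54 of the 75 members had a negative value, and 52 did at 6 h and at 24 h. The 2 libraries of each fraction did not overlap for 7 higher and 34 lower members at the start, 6 and 36 after 6 h, then 11 and 31 after 24 h. Among all genes, 24.7% were higher and 21.9% lower without overlap at the start, 19.4% and 29.9% after 6 h, then 25.1% and 28.1% after 24 h. Within tbGFP-negative cells the members' median was -0.11 at 6 h against 0 h (all genes 0.05) and -0.12 at 24 h against 0 h (all genes 0.23). TMM factors were 1.17 to 1.23 in tbGFP-negative libraries at 0 and 24 h and 0.86 to 0.958 in all others, so scaling by library totals alone moved the median of all genes by up to -0.42 in the comparisons of fractions and by up to 0.40 in those of time.

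The tbGFP-positive libraries at 6 h stood apart in these genes. Their 2 libraries differed by a median of 0.871 on the log2 scale over the 53 members with a mean above 10 CPM, against 0.121 to 0.371 in the other 5 groups. Over 6802 genes at that level the median difference was 0.559, against 0.149 to 0.345. Library 1 of this group had 7 members at 0 counts and library 2 had 5, while the other libraries had 0 to 3. Because all groups share one estimate of spread, the counts of calls were also taken without these 2 libraries. Then 9 members were called between fractions at 0 h (2 higher, 7 lower; 13.3% of all genes), 16 at 6 h against 0 h in tbGFP-negative cells (10 higher, 6 lower; 13.8%) and 16 at 24 h against 6 h (4 higher, 12 lower; 20.8%). Between fractions at 24 h 3 were called (9.43%), and at 24 h against 0 h 1 in tbGFP-negative (10.4%) and 2 in tbGFP-positive cells (4.96%). For 6 h against 0 h in tbGFP-negative cells the members' share of calls was thus below that of all genes with all 12 libraries and above it without these 2.

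The P stalk is the arm of the large subunit that recruits translation factors, and Rplp0 is its base. Rplp0 (chr5:115559467-115563727, GRCm38) was counted in the exons of its coding transcript. Its levels in libraries 1 and 2 were 680 and 638 CPM in untreated tbGFP-negative cells, 1090 and 970 after 6 h, and 634 and 671 after 24 h. In tbGFP-positive cells they were 1319 and 1141, 1096 and 1087, and 1292 and 1046. The 4 tbGFP-negative libraries at 0 and 24 h were the lowest of the 12 and did not overlap with any other. Rplp0 was higher in tbGFP-positive cells at 0 h (log2 fold change 0.90 ± 0.15, adjusted p = 0.000552) and at 24 h (0.84 ± 0.15, adjusted p = 0.00121). At 6 h the difference between fractions was 0.08 ± 0.14 (adjusted p = 0.759). Within tbGFP-negative cells it rose at 6 h (0.65 ± 0.15, adjusted p = 0.0184) and fell from 6 to 24 h (-0.66 ± 0.14, adjusted p = 0.0105). The rise at 6 h was not called with RLE factors, with library totals alone or without any 1 of the 6 tbGFP-negative libraries, and the later fall was not called with library totals alone or without library 1 at 6 h or either library at 24 h. The gap at 0 h was called in 22 of 22 alternatives, with log2 fold changes from 0.46 to 1.02. Tested by itself, the coding transcript Rplp0-201 lost that call in 3 of 21 alternatives, among them upper-quartile factors and library totals alone. With library totals alone the gap of the gene at 24 h was 0.41 (adjusted p = 0.0999). The change of the gap between 0 and 6 h was -0.82 ± 0.20 (adjusted p = 0.128).

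The other stalk members are Rplp1 and Rplp2. Rplp1, an acidic stalk protein bound to Rplp0, had 3227 and 2313 CPM in untreated tbGFP-negative cells, 4428 and 4128 after 6 h, and 2108 and 1991 after 24 h. In tbGFP-positive cells it had 4033 and 2052, 1797 and 3931, and 4518 and 2643 CPM. Its libraries differed within each tbGFP-positive group by more than the means of those groups did, and no comparison was called (lowest adjusted p = 0.129). Rplp2, its partner, was counted mainly in an intron, at 13.3 to 37.2 CPM except for tbGFP-positive library 1 at 6 h, with 68.2. It fell from 6 to 24 h in tbGFP-positive cells (-1.54 ± 0.44, adjusted p = 0.0428), a call lost without that library and under 13 other alternatives. Without both tbGFP-positive libraries at 6 h, Rplp2 was lower in tbGFP-positive cells at 0 h (-1.17 ± 0.29, adjusted p = 0.00681).

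Rps3a1, a small-subunit protein near the mRNA exit, followed Rplp0 within tbGFP-negative cells. Rps3a1 (chr3:86137940-86142702, 1 annotated transcript) had 2038 and 2176 CPM at the start, 3342 and 3211 after 6 h, then 2258 and 2209 after 24 h. The tbGFP-positive libraries had 2503 and 2557, 2995 and 2704, and 2551 and 2627 CPM. On this scaling the tbGFP-negative pair at 6 h was the highest of all, and the pairs at 0 and 24 h the lowest. With the TMM factors taken out, the pair at 6 h was still the highest. The pairs at 0 and 24 h were then no longer the lowest, as tbGFP-positive libraries lay below them. It rose at 6 h in tbGFP-negative cells (0.64 ± 0.12, adjusted p = 0.00495) and fell by 24 h (-0.55 ± 0.12, adjusted p = 0.00732). Within tbGFP-positive cells the difference at 6 h was 0.17 ± 0.11 (adjusted p = 0.378), and the difference of these changes was -0.47 ± 0.16 (adjusted p = 0.248). The rise was not called with library totals alone (0.29) or without either tbGFP-negative library at 0 or 6 h. The fall was not called with library totals alone (-0.15) or without either library at 24 h.

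**Figure D3:**
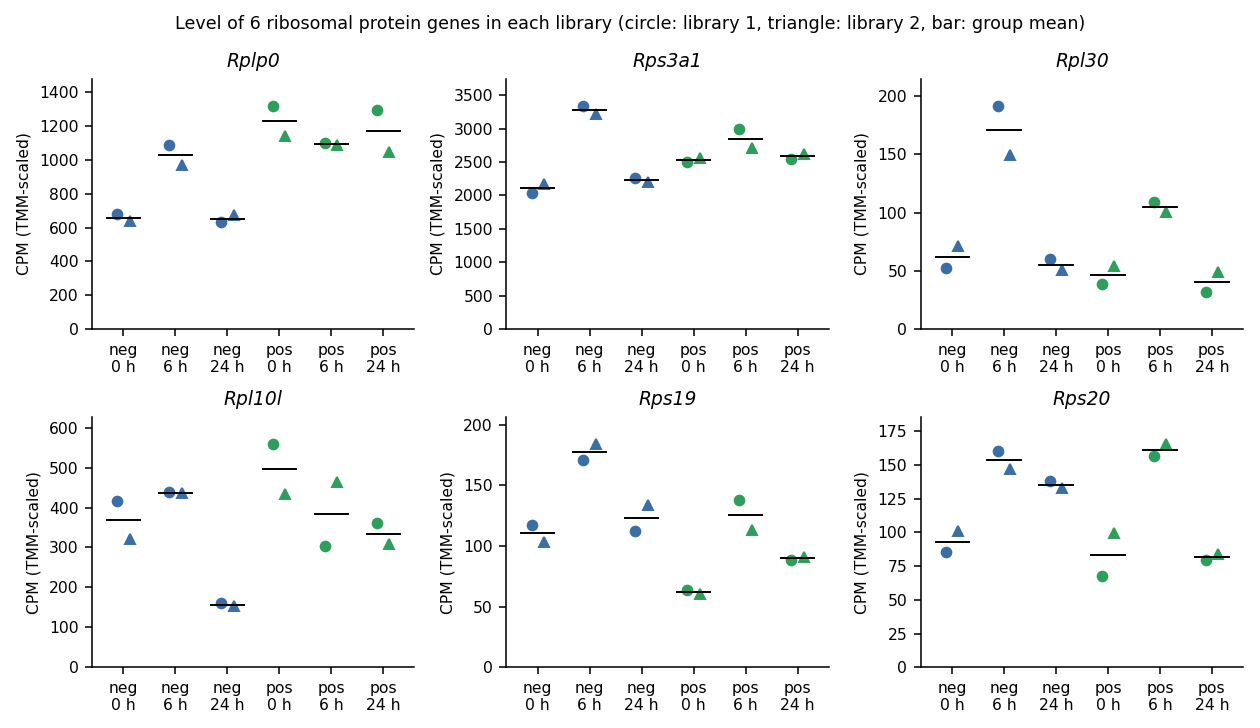
Levels (CPM scaled by TMM factors, vertical axis from 0) of Rplp0, Rps3a1, Rpl30, Rpl10l, Rps19 and Rps20 in each library by sorted fraction and time, with bars at group means. Rpl30 was highest in the 4 libraries at 6 h (100 to 192 CPM), and Rpl10l was lowest in the tbGFP-negative libraries at 24 h (160 and 154 CPM).

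Rpl30 changed with time in both fractions, mainly in intron counts. Rpl30 (chr15:34440505-34443640) is a large-subunit protein whose yeast counterpart binds its own unspliced transcript. Its levels were 52.8 and 71 CPM in untreated tbGFP-negative cells, 192 and 149 after 6 h, and 59.9 and 50.4 after 24 h. In tbGFP-positive cells they were 39.1 and 54.7, 109 and 100, and 32 and 48.9. All 4 libraries at 6 h lay above the other 8. Rpl30 rose at 6 h in tbGFP-negative cells (1.45 ± 0.26, adjusted p = 0.00492) and in tbGFP-positive cells (1.16 ± 0.26, adjusted p = 0.0213). It fell from 6 to 24 h in both (-1.63 ± 0.26, adjusted p = 0.00113, and -1.37 ± 0.26, adjusted p = 0.00731). The fall in tbGFP-negative cells was called in 21 of 22 alternatives, the exception being protein-coding transcripts alone. The rise in tbGFP-negative cells was not called without either library at 0 h or library 1 at 6 h, and the rise in tbGFP-positive cells not without either of its libraries at 0 h or either tbGFP-negative library at 6 h. Without tbGFP-positive library 1 at 24 h the fall in that fraction was not called. In a fit of the compared groups alone, neither the rise nor the fall in tbGFP-positive cells was called.

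The intron-holding transcript Rpl30-203, whose boundary is printed above, made up nearly all of this signal. In tbGFP-negative libraries it went from 52.9 and 72 CPM to 178 and 138 after 6 h. In tbGFP-positive libraries it went from 37.5 and 49.8 CPM to 98.1 and 93.9. With protein-coding transcripts alone, only the low-count Rpl30-206 remained, the changes in tbGFP-positive cells had the opposite sign (-0.33 at 6 h against 0 h and 0.51 at 24 h against 6 h) and no change of Rpl30 was called. D730044K07Rik, a gene model that awaits experimental proof, lies on the opposite strand over 616 exon bases of Rpl30, with 0 to 19 counts per library. The strand setting of the counting is not given in the sources used here.

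For Rpl27a the intron transcript and the coding transcript are given apart. Transcripts tested one by one, an alternative added after seeing that the files hold transcript counts, gave 178 member transcripts among 27096. Between fractions 3 member transcripts were called at 0 h (5.28% of all transcripts), 18 at 6 h (9.85%) and 3 at 24 h (3.95%). Within tbGFP-negative cells 4 were called at 6 h against 0 h (2.69%), 2 at 24 h against 0 h (2.73%) and 3 at 24 h against 6 h (4.69%). Within tbGFP-positive cells these numbers were 18 (5.79%), 0 (0.358%) and 20 (8.42%). The retained-intron transcript Rpl27a-202 had 18.1 and 24.6 CPM in untreated tbGFP-negative cells, 67.5 and 61.4 after 6 h, and 28.4 and 25.5 after 24 h. In tbGFP-positive cells it had 9.47 and 13.1, 54.5 and 34.4, and 18.4 and 22.2 CPM. It rose at 6 h in tbGFP-negative (1.58 ± 0.33, adjusted p = 0.0122) and in tbGFP-positive cells (1.97 ± 0.34, adjusted p = 0.00335) in the edgeR test. The coding transcript Rpl27a-203, counted in its 3′ UTR, had 112 and 134 CPM, then 147 and 124, then 112 and 122 in tbGFP-negative cells. Its tbGFP-negative libraries at 6 h overlapped those at 0 h and lay above those at 24 h. It had 105 and 122, 91.9 and 162, and 105 and 88 CPM in tbGFP-positive cells, with all times overlapping. The intron and coding transcripts were not tested against each other. Summed over transcripts, Rpl27a was called lower at 24 h than at 6 h in tbGFP-positive cells, a call lost in 15 of 21 alternatives. The rise of the intron in tbGFP-negative cells was not called without any 1 of the 4 libraries compared. Its rise in tbGFP-positive cells was not called in a fit of the compared groups alone.

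**Figure D4:**
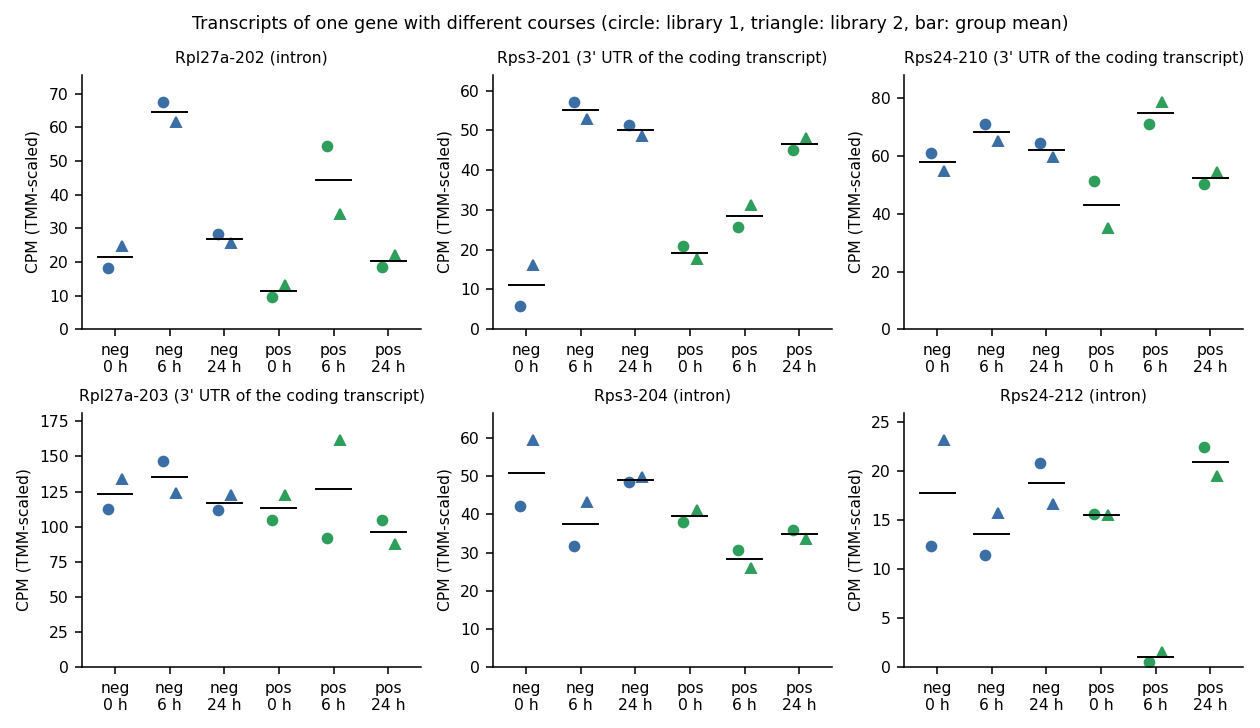
Levels (CPM, vertical axis from 0) of single transcripts of Rpl27a, Rps3 and Rps24 in each library by fraction and time, with bars at group means. The intron transcript Rpl27a-202 was highest at 6 h (34.4 to 67.5 CPM) while the coding transcript Rpl27a-203 was at 88 to 162 CPM throughout, and Rps24-212 was at 0.559 and 1.59 CPM in tbGFP-positive libraries at 6 h.

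Rps3, a small-subunit protein at the mRNA entry that also takes part in DNA repair, changed at its private 3′ UTR. The coding transcript Rps3-201 has a private run of 566 bases there. It had 5.79 and 16.2 CPM in untreated tbGFP-negative cells, 57.2 and 52.9 after 6 h, and 51.4 and 48.6 after 24 h. In tbGFP-positive cells it had 20.9 and 17.6, 25.7 and 31.3, and 45.1 and 48.2 CPM. In tbGFP-negative cells it rose at 6 h (2.24 ± 0.37, adjusted p = 0.00194) and was still higher at 24 h than at 0 h (2.10 ± 0.37, adjusted p = 0.00201), with both calls made in 21 of 21 alternatives. The tbGFP-negative libraries at 0 h did not overlap with those at either later time, though their ratio to each other was larger than in any other group. The intron transcript Rps3-204 was at 31.7 to 59.4 CPM in tbGFP-negative and 26 to 41.1 in tbGFP-positive libraries and was not called. Summed over transcripts, Rps3 was not called in any comparison of the 12-library fit.

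Rps19, mutated in Diamond-Blackfan anaemia, and Rps20, of the small-subunit head, also varied with time. Rps19 had 118 and 104 CPM in untreated tbGFP-negative cells, 171 and 184 after 6 h, and 112 and 134 after 24 h. In tbGFP-positive cells it had 63.9 and 60.8, 138 and 113, and 88.9 and 90.7 CPM. The tbGFP-positive libraries at 0 h were the lowest of all. Rps19 was lower in tbGFP-positive than in tbGFP-negative cells at 0 h (-0.82 ± 0.19, adjusted p = 0.012) and rose in tbGFP-positive cells at 6 h (1.01 ± 0.19, adjusted p = 0.00921). Most of these counts came from the intron transcript Rps19-207. Neither change was called with protein-coding transcripts alone. The difference at 0 h was also lost without tbGFP-negative library 1 or either tbGFP-positive library at 0 h. The rise was also lost without tbGFP-positive library 2 at 0 h and in a fit of the compared groups alone.

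Rps20, counted in the long 3′ UTR of its coding transcript, had 85.2 and 101 CPM in untreated tbGFP-negative cells, 161 and 147 after 6 h, and 138 and 133 after 24 h. In tbGFP-positive cells it had 67.5 and 99.7, 157 and 166, and 79.9 and 84.1 CPM. It rose in tbGFP-positive cells at 6 h (0.95 ± 0.21, adjusted p = 0.0177) and fell by 24 h (-0.98 ± 0.21, adjusted p = 0.0116). In tbGFP-negative cells the differences were 0.72 ± 0.20 at 6 h against 0 h (adjusted p = 0.062) and -0.18 ± 0.20 at 24 h against 6 h (adjusted p = 0.679). The tbGFP-positive rise was not called without library 1 of that fraction at 0 h, either tbGFP-negative library at 6 h or tbGFP-negative library 1 at 24 h, and the fall not without either tbGFP-positive library at 24 h.

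Rpsa, the small-subunit protein known as the laminin receptor, was lower in tbGFP-positive cells at 0 h. It had 76.6 and 68.7 CPM in untreated tbGFP-negative cells, 82.2 and 75.2 after 6 h, and 61.9 and 47.4 after 24 h. It had 32.8 and 40.6, 58 and 52.4, and 36.1 and 31.5 CPM in tbGFP-positive cells. The fractions did not overlap at any of the 3 times. The difference at 0 h was -0.98 ± 0.24 (adjusted p = 0.0173), and it was not called without either tbGFP-negative library or tbGFP-positive library 1 at 0 h.

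Rpl10l is an intronless copy of Rpl10, known from testis. Its single transcript (chr12:66283379-66284401) shared 7.6% of its 50-base words with other annotated genes and none with Rpl10. Rpl10l had 416 and 322 CPM in untreated tbGFP-negative cells, 439 and 435 after 6 h, and 160 and 154 after 24 h. In tbGFP-positive cells it had 559 and 433, 304 and 464, and 360 and 310 CPM. The tbGFP-negative libraries at 24 h stood below the other 10. Rpl10l fell in tbGFP-negative cells from 0 to 24 h (-1.23 ± 0.21, adjusted p = 0.00249) and from 6 to 24 h (-1.48 ± 0.21, adjusted p = 0.000472, called in 22 of 22 alternatives). At 24 h it was higher in tbGFP-positive cells (1.09 ± 0.21, adjusted p = 0.00296). The change of the gap between 0 and 24 h was 0.66 ± 0.29 (adjusted p = 0.847). The fall from 0 h was not called without tbGFP-negative library 1 at 0 h (adjusted p = 0.0579), and the gap at 24 h not with library totals alone or without tbGFP-positive library 1 at 24 h.

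Among other members with a paralog, Rpl10, Rpl39, Rpl22, Rpl22l1, Rpl36a and Rpl36al were not called in the fit of 12 libraries. Rpl10, which is X-linked and was counted in an intron, had 16.6 to 31.2 CPM in 10 libraries and 50.8 and 12.7 in the tbGFP-positive libraries at 6 h. Rpl39, at the exit tunnel, ranged from 604 to 1230 CPM and its paralog Rpl39l from 0.902 to 12.8. Rpl22 was at 0 to 4.75 CPM and Rpl22l1 at 0.492 to 16.4, with 16.4 and 13.5 in tbGFP-negative cells at 0 h against 4.2 and 0.492 in tbGFP-positive cells. Rpl36a ranged from 0 to 25.8 CPM and Rpl36al from 0 to 5.58. Rpl3 was at 61.5 to 177 CPM and Rps4x at 26.1 to 66. Rpl7l1, a nucleolar relative of Rpl7, was the most even member: its 12 libraries lay between 475 and 609 CPM, and its group means spanned 0.30 on the log2(CPM + 0.5) scale. Rps7, Rps24, Rpl15 and Rpl9 followed, with spans of 0.48 to 0.59 in the order given.

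The widest spans belonged to Rpl11, Rps25, Rps29, Rpl7 and Rpl41, at 4.73, 3.56, 3.49, 3.46 and 2.78, and all 5 were lowest in tbGFP-positive cells at 6 h. These members had few counts. Rpl11, which binds Mdm2, had 0 and 2 counts in the tbGFP-positive libraries at 6 h, 78 and 21 in those at 0 h, 43 and 81 at 24 h and 46 to 141 in tbGFP-negative libraries. At 6 h it was lower by a ratio of 63.5 in tbGFP-positive than in tbGFP-negative cells (95% counting interval 17.2 to 530) and at 6 h against 0 h by 55.3 (14.9 to 463), counting error only. Both differences were called (adjusted p = 0.000211 and 0.00284), and so was the rise to 24 h (adjusted p = 0.00216), and of 21 alternatives only the fit of the compared groups alone lost them.

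Rps25, needed for translation from some internal entry sites, had 0 and 1 counts there and 28 and 29 in tbGFP-positive cells at 0 h, a ratio of 63.7 (95% counting interval 10.99 to 2561, adjusted p = 0.0101 in edgeR). Rps29, a small zinc-binding protein, had 0 and 4 counts against 24 and 35 (-4.15 ± 1.11, adjusted p = 0.0413). Rpl41, the smallest ribosomal protein, had 2 and 4 against 43 and 21 (-3.48 ± 0.91, adjusted p = 0.0367). Rpl7, of the large subunit, had 0 and 22 against 65 and 61 (-2.89 ± 0.71, adjusted p = 0.0287). The Rps29, Rpl41 and Rpl7 calls were each lost without either tbGFP-positive library at 0 h or 24 h and under other alternatives. Rps27a, made as a fusion with ubiquitin, had 11.7 and 10.2 CPM in tbGFP-positive cells at 6 h and 20.6 to 39.8 elsewhere, and was lower than in tbGFP-negative cells at 6 h (-1.63 ± 0.31, adjusted p = 0.0027). Rpl10a, of the L1 stalk, was also lower there, at 17.1 and 28 CPM against 58.2 and 53.9 (-1.29 ± 0.27, adjusted p = 0.00508). Rps14, of the small subunit, was lower by -1.48 ± 0.36 (adjusted p = 0.0154), a call lost with protein-coding transcripts alone and without tbGFP-negative library 2 at 6 h. A fit of the compared groups alone called 0 members between fractions at 6 h. It also called 0 at 6 h against 0 h and at 24 h against 6 h in tbGFP-positive cells. With all 12 libraries edgeR called 7, 8 and 11 in these comparisons and DESeq2 called 10, 13 and 20.

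Transcripts of one gene could differ in this. In tbGFP-positive cells at 6 h, 14 member transcripts were lower and 4 higher than at 0 h, against the background of 5.79% given above. Rps24-212, in an intron, had 0.559 and 1.59 CPM there against 11.5 to 23.2 in the other 10 libraries, while Rps24-210, in the 3′ UTR of the coding transcript, had 71.2 and 78.8 against 35 to 71.3. Rps24-212 was lower at 6 h than at 0 h by -3.70 ± 0.56 (adjusted p = 0.00146). Within Rps19 the short intron transcript Rps19-206 had 0 counts in both libraries, at least 8.57-fold lower than at 0 h taking 3 counts per group as the floor, while Rps19-207 rose (0.95 ± 0.23, adjusted p = 0.0245). Rpl37-201, counted in its 3′ UTR, also had 0 counts in both, at least 18.9-fold lower than in tbGFP-negative cells at 6 h. Of the 14 lower transcripts, those at 0 in both libraries have no fitted fold that can be read as a size. The Rps24-212 and Rps19-207 calls at 6 h against 0 h were lost in a fit of the compared groups alone. That of Rps19-207 was also lost without either tbGFP-positive library at 0 h or either tbGFP-negative library at 6 h.

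Without the tbGFP-positive libraries at 6 h, further members called in tbGFP-negative cells at 6 h against 0 h were Rpl32 (1.45 ± 0.33, adjusted p = 0.00417), Rpl23, Rps20, Rps3, Rps19, Rpl27a and Rpl15 upward. Downward were Rpl13 (-1.58 ± 0.44, adjusted p = 0.0167), Rpl7, Rpl35a, Rps4x, Rpl12 and Rpl3. Rps3, Rpl37, Rpl32, Rpl13, Rpl35a and Rpl12 were named after their values were seen. Rpl32, a large-subunit protein often used as a reference gene, had 16.4 and 15.3 CPM at the start, 42.3 and 46.4 after 6 h, then 16.7 and 20.4 after 24 h in tbGFP-negative cells. Rpl23, which can bind Mdm2, had 63.6 and 60.2, 118 and 89.9, and 74.2 and 93.9 CPM. Rpl3, at the peptidyl transferase centre, had 144 and 177 CPM at the start, 94.3 and 107 after 6 h, then 145 and 134 after 24 h. Rpl5, the partner of Rpl11, was at 16.5 to 47.6 CPM and Rps6, the mTOR pathway's phosphorylation target, at 4.51 to 22.2 CPM, and neither was called.

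No member was called for a change in the gap between fractions. At 6 h against 0 h 0.17% of all genes were called and 10 members had an unadjusted p under 0.05 with edgeR, and DESeq2 called 1. At 24 h against 0 h 0.97% of all genes were called, 1 member had an unadjusted p under 0.05 and DESeq2 called 0. Without the tbGFP-positive libraries at 6 h, 0 members and 1.74% of all genes were called for the latter. A member called in one fraction or at one time is therefore not shown to differ from the other.

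In some groups base composition moved with the difference between libraries. Over the 53 members above 10 CPM, the log2 difference between libraries 1 and 2 correlated with the GC content of the leading transcript at r = 0.41 (rho 0.38) in tbGFP-negative cells at 0 h, -0.34 (-0.365) at 6 h and -0.080 (-0.046) at 24 h. In tbGFP-positive cells r was 0.40 (0.36), 0.051 (-0.015) and 0.33 (0.42). These are descriptions across genes of the same 2 libraries, and over 6802 genes r ranged from -0.31 to 0.39. Rplp1 and Rpl36, with 57.3% and 60.8% GC, were high in the same libraries: Rpl36 had 1412 and 770 CPM in tbGFP-positive cells at the start, 741 and 1364 after 6 h, then 1425 and 910 after 24 h, and no comparison of it was called (lowest adjusted p = 0.056). Rpl4, with 48.2% GC, ran the other way, at 1211 and 1809, 2260 and 1315, and 989 and 1254 CPM. The part of base composition in the changes above was not tested.

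The rest of the translation machinery was taken from lists. The genes of these lists, here and below, were summed from the same transcript counts. Which part of each gene was counted was not examined, so their values need not stand for the whole mRNA. Eef1a1, for 1, was at only 4.52 to 27.9 CPM. Of the 2 tested subunit genes outside the symbol rule, none was called in any comparison. Of 20 other mRNAs with a pyrimidine start, 1 rose at 6 h in tbGFP-negative cells (3.22% of all genes rose) and 3 fell from 6 to 24 h (4.3% fell). In tbGFP-positive cells 2 rose (2.14%) and 3 fell (3.76%) at 6 h, and 2 rose (5.89%) and 4 fell (2.9%) from 6 to 24 h. Between fractions at 6 h 3 were lower (5.22%). The one that rose in tbGFP-negative cells was Npm1, a nucleolar assembly factor, with 500 and 552 CPM at 0 h and 1055 and 1009 at 6 h (0.97 ± 0.21, adjusted p = 0.0133). Of 23 initiation factors, 2 rose at 6 h in tbGFP-negative cells (3.22% of all genes), with a list median of 0.36 (all genes 0.05), and 11 fell from 6 to 24 h (4.3%), with a median of -0.56 (all genes 0.16). In tbGFP-positive cells 2 rose at 6 h (2.14%) and 3 fell from 6 to 24 h (2.9%). From 0 to 24 h in tbGFP-negative cells 1 fell (1.29%). Between fractions at 6 h 4 initiation factors were lower (5.22%) and 1 higher (6.92%).

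Of 68 tested mitochondrial ribosomal protein genes, 1 rose (3.22% of all genes) and 1 fell (1.21%) at 6 h in tbGFP-negative cells, and 5 rose from 6 to 24 h (3.62%). In tbGFP-positive cells 1 rose (2.14%) and 5 fell (3.76%) at 6 h, and 6 rose from 6 to 24 h (5.89%). From 0 to 24 h 1 rose in tbGFP-negative (2.7%) and 1 in tbGFP-positive cells (0.304%). Between fractions at 6 h 1 was higher (6.92%) and 5 were lower (5.22%).

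Of 20 tested genes that control ribosomal protein synthesis, 5 rose (3.22% of all genes) and 1 fell (1.21%) at 6 h in tbGFP-negative cells and 7 fell from 6 to 24 h (4.3%). In tbGFP-positive cells 2 rose at 6 h (2.14%), and 1 rose (5.89%) and 1 fell (2.9%) from 6 to 24 h. From 0 to 24 h in tbGFP-negative cells 2 rose (2.7%) and 1 fell (1.29%), and between fractions 2 were higher in tbGFP-positive cells at each time (6.66%, 6.92% and 5.35%). Yy1, a transcription factor, had 199 and 200 CPM at the start, 848 and 887 after 6 h, then 263 and 247 after 24 h (2.12 ± 0.18 at 6 h, adjusted p = 9.97e-06). It also rose at 6 h in tbGFP-positive cells (1.28 ± 0.18, adjusted p = 0.00152), and all 4 libraries at 6 h lay above the other 8. Mdm2, the ligase bound by Rpl5, Rpl11 and Rpl23, rose at 6 h in both fractions (3.40 ± 0.48, adjusted p = 0.000941, and 2.41 ± 0.47, adjusted p = 0.0103). It went from 7.81 and 10.97 CPM to 103 and 100 in tbGFP-negative cells. In tbGFP-positive cells it went from 10.3 and 9.35 CPM to 21 and 82.7, so the libraries at 6 h differed widely there. Ddit4l, an inhibitor of mTOR signalling, was higher in tbGFP-positive cells at 0, 6 and 24 h, by 5.23 ± 0.26, 1.36 ± 0.21 and 3.51 ± 0.23.

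Promoters were available in RefSeq's GRCm38.p6 annotation for 57 of the 75 members, 67 windows of 250 bases before and 50 after the start. The letters CCGGAAG, the core bound by ETS factors such as Gabpa, occurred on either strand in 37.3% of member windows and 8.86% of all 32851 windows. AAGATGGC, which contains the core of Yy1 sites, occurred in 11.9% against 2.75%. CACGTG, bound by Myc, occurred in 11.9% against 7.15%. A start at C followed by 4 C or T was annotated in 17.9% against 2.51%. The 60 bases before the start are shown for the evenly expressed Rps7 and for Rpl37, whose 3′ UTR counts dropped, with CCGGAAG or its reverse complement in capitals.
Rps7, chr12:28635954-28636013, minus strand: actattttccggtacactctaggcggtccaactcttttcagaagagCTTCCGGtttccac
Rpl37, chr15:5116553-5116612, plus strand: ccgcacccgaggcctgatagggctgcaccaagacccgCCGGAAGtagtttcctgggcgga
Both windows hold these letters, and a match is no measurement of binding.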

How the data were processed

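RNA from 50000 sorted cells (120 ng) was made into stranded total RNA libraries, per the labels' protocols. The submitters' processing notes name FastQC, HISAT2, featureCounts, DESeq2 and the build mm10, without versions. The deposited values are raw counts for 142446 transcripts, per the file headers. How strand, overlaps and multiple hits were treated is not given in the sources used here. The design assumed gene counts, so transcript counts were summed by gene with GENCODE M21; 910 transcripts without a match, holding 0.0606% to 0.0903% of counts, were left out. Genes reaching 10 counts in 2 libraries entered edgeR 4.0.16 (limma 3.58.1, R 4.3.3) with TMM factors and 1 mean per group, all 12 libraries sharing the spread. The code was tested on simulated data with a spread set below that of these libraries, whose fitted biological coefficient of variation was 45.57%. That test checks the code and does not give the power at this spread. DESeq2 1.42.0, other scalings and filters, and left-out libraries were alternatives. Members, gene lists and tests were chosen with earlier results of these data known. Named by rule were up to 5 called members per comparison and direction, a panel by role, the 5 with the most counts and the 5 with the narrowest and widest spans of group means. In each library 3 counts equal 0.309 to 1.12 CPM. Intervals cover counting error only. Some members' single results are not reported here.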

Additional observations from a re-analysis of the deposited data

How the results depend on the processing

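The number of members called depended on the spread estimate and the libraries used. Between fractions at 0 h, 3 were called, against 9 with upper-quartile factors, 11 with library totals alone, 5 with no low-count filter, 6 with the compared groups alone, 9 without both tbGFP-positive libraries at 6 h, and 1 to 9 without 1 library. At 6 h it was 7, against 17 with upper-quartile factors, 0 with the compared groups alone, 4 with protein-coding transcripts alone and 3 to 33 without 1 library. At 24 h it was 2, against 4, 5 and 5 with upper-quartile factors, library totals and the compared groups alone, and 1 to 3 without 1 library. In tbGFP-negative cells, 3 at 6 h against 0 h became 5 with no filter, 25 with the compared groups alone, 16 without both tbGFP-positive libraries at 6 h and 0 to 16 without 1 library. At 24 h against 0 h 1 became 18 with the compared groups alone, 2 with protein-coding transcripts alone and 0 to 1 without 1 library. At 24 h against 6 h 4 became 7 with upper-quartile factors, 7 with DESeq2, 8 with no filter, 29 with the compared groups alone, 16 without both tbGFP-positive libraries at 6 h and 2 to 15 without 1 library. In tbGFP-positive cells, 8 at 6 h against 0 h became 13 with DESeq2, 13 with no filter, 0 with the compared groups alone, 5 with protein-coding transcripts alone and 3 to 29 without 1 library. At 24 h against 0 h 0 became 2 without both libraries at 6 h, and 0 to 2 without 1 library. At 24 h against 6 h 11 became 20 with DESeq2, 17 with no filter, 7 with the replicate block, 0 with the compared groups alone, 4 with protein-coding transcripts alone and 1 to 32 without 1 library. The change of the gap at 6 h, 0, became 1 with DESeq2, 2 with no filter and 0 to 19 without 1 library. Without tbGFP-positive library 2 at 6 h the counts at that time were the highest, 33, 29, 32 and 19 in the order of the comparisons given. Rpl30 had the opposite sign in tbGFP-positive cells with protein-coding transcripts alone (-0.33 and 0.51). Replicate numbers were not taken as pairs, since the labels do not say what they mark. Differences between libraries 1 and 2 correlated at -0.16 to 0.27 over 15 pairs of groups, which does not settle whether same-numbered libraries share a culture. The replicate block kept 33 of 39 calls. The share of counts with protein-coding transcripts alone was 1.22%, 1.38% and 1.14% in tbGFP-negative cells at 0, 6 and 24 h and 1.07%, 1.17% and 1.11% in tbGFP-positive cells, whose libraries then overlapped at 24 h. Without mitochondrial and Zscan4 genes it was 1.46%, 1.59% and 1.36%, and 1.30%, 1.38% and 1.31%. The cause of these changes was not tested.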
